A study of Homo sapiens with 4 samples.

Results

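The genes described here encode the E, A and B cyclins, the kinases CDK2 and CDK1 that these cyclins switch on, and the enzymes that add or remove the inhibitory phosphate on those kinases. They are CCNE1, CCNE2, CDK2, CCNA2, CCNB1, CCNB2, CDK1, CDC25A, CDC25C and WEE1, chosen by name, and all 10 were found among the 20263 genes of the deposited count table. RNA was sequenced from MDA-MB-231 cells, an established human line of triple-negative breast cancer, after 24 h with Rib_CA or with DMSO. The series title calls the compound a ribociclib derivative, ribociclib being an inhibitor of the cyclin D kinases CDK4 and CDK6. There were 2 libraries per group, DMSO 1 and 2 and Rib_CA 1 and 2, all from this 1 cell line, and the labels give no dose.

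Cyclins are regulatory subunits whose amounts rise and fall through the cell cycle. Cyclin E with CDK2 drives the entry into DNA synthesis, cyclin A with CDK2 and then CDK1 carries the cell through synthesis and into G2, and cyclin B with CDK1 starts mitosis. WEE1 holds CDK1 and CDK2 inactive by phosphorylation, and the CDC25 phosphatases remove that mark. Kinases of the cyclin D step act before all of these, by phosphorylating RB and so releasing the E2F factors that transcribe CCNE1, CCNE2 and CDC25A.

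Promoter sites are shown because genes of G2 and mitosis are known for a shared promoter layout. In such promoters a cell cycle homology region (CHR) binds the MuvB complexes, and inverted CCAAT boxes bind NF-Y. RefSeq promoter windows (GRCh38.p14), matched by symbol, were used for 7 of the 10 genes. CCNE2 was left out of these by choice, whether or not it had a window. Sites are shown for CCNE1, CCNA2, CCNB2, CDK1, CDC25A and CDC25C. The 100 bases before each start were searched on both strands for the CCAAT box and for 4 CHR forms and 3 E2F forms. The CHR forms were TTTGAA, which the CCNB2 site holds, TTTAAA, which the CCNE1 site holds, CTTGAA, which the CCNA2 site holds, and TTCGAA, which no printed site holds. The E2F forms were TTTGGCGC, which the CDC25A site holds, TTTCGCGC and TTTCCCGC. No form contains another. Each line gives 30 bases, 5′ to 3′ on the gene's strand, with the CHR match in capitals, or the E2F match for CDC25A.
CCNE1 (chr19:29811945-29811974, plus strand): ggttccgcgcgcagggatTTTAAAtgtccc
CCNA2 (chr4:121823900-121823929, minus strand): ttcaatagtcgcgggataCTTGAActgcaa
CCNB2 (chr15:59105099-59105128, plus strand): ggcgcaagcgacgcggtaTTTGAAtcctgg
CDK1 (chr10:60778447-60778476, plus strand): gccctttagcgcggtgagTTTGAAactgct
CDC25C (chr5:138331823-138331852, minus strand): tactgggctggcggaaggTTTGAAtggtca
CDC25A (chr3:48188448-48188477, minus strand): tgattggtggattccgTTTGGCGCcaacta

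In CCNB2 the CHR match began 29 bases before the start, with 2 CCAAT boxes further upstream. Both of these boxes read CCAAT on the gene's strand and so were not inverted. CDK1 had 2 CCAAT boxes and 2 CHR matches before the later of its 2 listed starts, CDC25C had 1 of each before the last of its 4 listed starts, and CCNA2 had 1 CCAAT box and 2 CHR matches. CDC25A held 1 CCAAT box and the E2F match, and CCNE1 a TTTAAA with no CCAAT box. The CCAAT boxes of CDK1, CDC25C, CCNA2 and CDC25A were inverted. Over all 35116 windows, 18.1% held CCAAT, 11.3% a CHR form, 2.15% both, and 0.945% an E2F form. A match is a description of letters and not a shown binding site.

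The libraries held 34774542 to 38865103 counts. Mitochondrial transcripts took 8.68% and 21.7% of the counts in DMSO 1 and 2 against 5.78% and 3.13% in Rib_CA 1 and 2, so DMSO 2 stood apart. Of 8 markers of this class of breast line (VIM, CD44, AXL, CAV1, MSN, ANXA1, EGFR and FOSL1) none was at 0, and VIM lay at 3586 to 4220 CPM. Markers of luminal breast epithelium summed to 526 to 936 CPM, chiefly KRT8 (272 to 487 CPM), KRT18 (180 to 336) and ERBB2 (57.95 to 87.1), with CDH1 at 0 to 0.0766 CPM. Leukocyte markers summed to 162 to 339 CPM, of which CD68 gave 161 to 338, with PTPRC at no more than 0.634 CPM and CD3E at 0. Fibroblast markers summed to 4.76 to 10.7 CPM, chiefly COL1A1 (4.09 to 8.04), with DCN and COL1A2 at 0. Endothelial markers summed to 3.67 to 15.1 CPM. CPM here means counts per 1000000 counts after TMM scaling, with all group values as mean ± SD over 2 libraries. The labels do not say whether these came from separate cultures, so every p-value measures only the spread between these libraries.

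Of the 10 genes, CCNE2 was the only 1 called at an adjusted p under 0.05 in edgeR's quasi-likelihood test over 13667 genes, and it was lower in Rib_CA. Across all genes tested, 5.11% were called lower, 2.01% higher and 7.13% in either direction, so 1 of 10 is close to the background. All 10 fold changes were negative, from -1.90 to -0.02 on the log2 scale, with a median of -0.39 where all genes had 0.03. With libraries scaled by total counts alone, CDC25A turned to 0.125, the median of the 10 was -0.21, and that of all genes moved up by 0.20 to 0.24. That scaling also moved the share of calls that were higher from 28.2% to 44.2%. Both Rib_CA libraries lay below both DMSO libraries for 4 of the 10 genes (CCNE2, CCNA2, CCNB2 and WEE1), where 28.4% of all genes did so. They lay above for 0 of the 10, where 30.4% of all genes did so. These are bulk libraries, in which fewer cells at a stage of the cycle and less RNA per cell cannot be told apart.

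**Figure D1:**
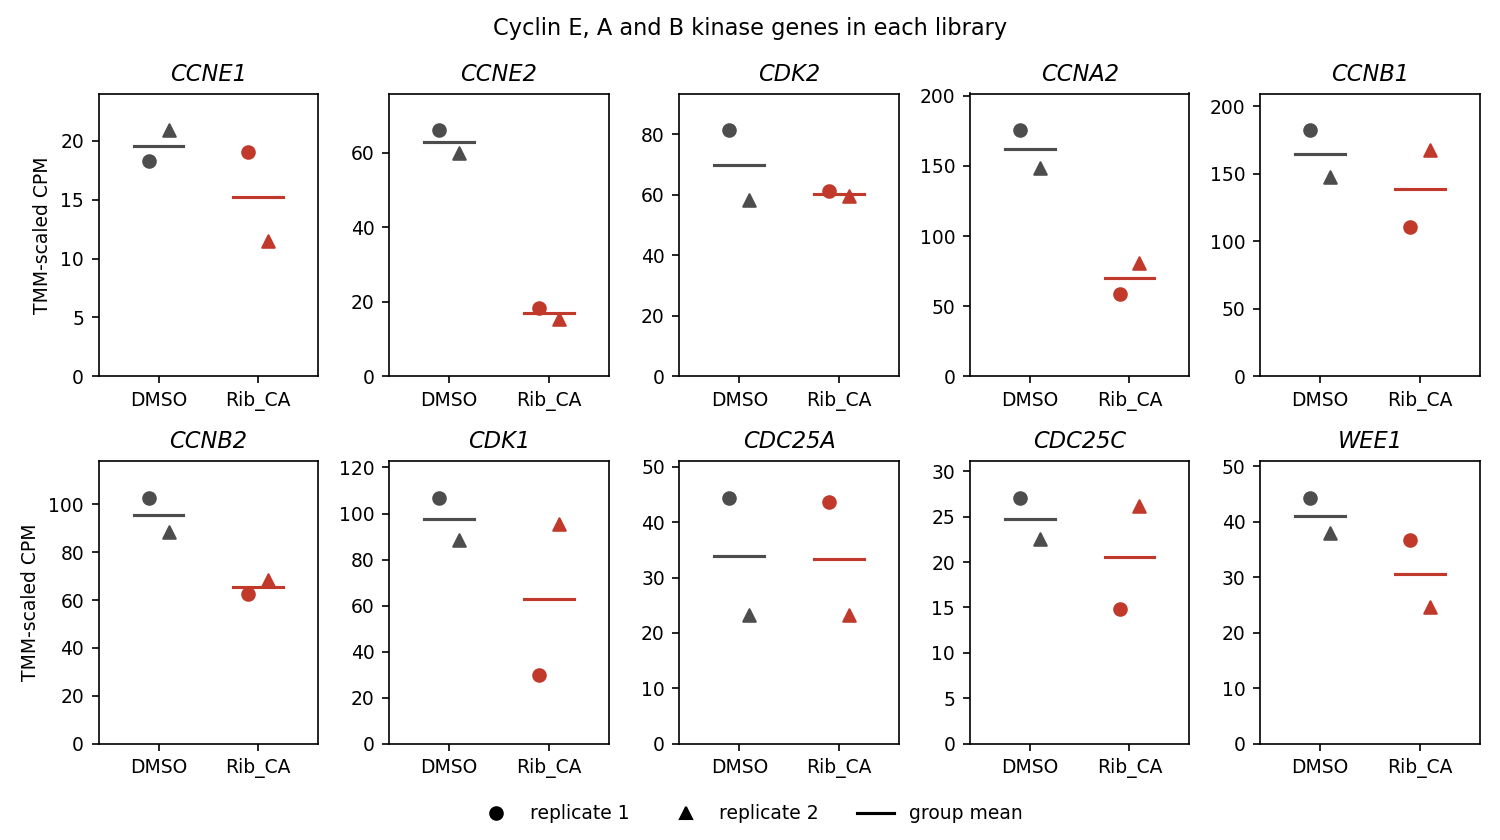
TMM-scaled CPM of each gene (vertical axis, linear from 0) in the DMSO and Rib_CA libraries, with circles for replicate 1, triangles for replicate 2 and a line at the group mean. CCNE2 and CCNA2 show both Rib_CA points well below both DMSO points, while the 2 Rib_CA points of CDK1 lie at 29.8 and 95.7 CPM.

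Per kilobase of the longest annotated transcript, the DMSO mean was highest for CCNB1 at 76.0 CPM per kb. CCNA2 followed at 58.0, CDK1 at 50.1, CCNB2 at 38.2, CDK2 at 26.8 and CCNE2 at 18.9 CPM per kb. CDC25C (11.6), CCNE1 (9.59), CDC25A (8.95) and WEE1 (7.93) formed the low end on the same scale. The neighbours CCNA2 and CDK1, CCNE1 and CDC25A, and CDC25A and WEE1 overlapped between the DMSO libraries, and the other neighbours did not. In Rib_CA, CCNB1 was again the highest at 64.1 CPM per kb, in both libraries. The means of CDK1 (32.2), CCNB2 (26.2), CCNA2 (24.9) and CDK2 (23.2) came next, with every neighbour overlapping, and CDK1 was at 15.3 CPM per kb in Rib_CA 1 and 49.1 in Rib_CA 2. CDC25C (9.61), CDC25A (8.84), CCNE1 (7.46), WEE1 (5.91) and CCNE2 (5.05) followed below a gap, and their neighbours overlapped as well.

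Of the E cyclin genes, CCNE2 fell and CCNE1 did not pass. CCNE2, which encodes cyclin E2 (chr8:94879770-94896678, minus strand, GENCODE 29, GRCh38), was at 65.97 and 59.8 CPM in DMSO 1 and 2. It was at 18.4 and 15.3 CPM in Rib_CA 1 and 2, and no library of a group came near the other group. The mean fell from 62.9 ± 4.36 to 16.8 ± 2.17 CPM (SD, n = 2), 3.74-fold lower, with a log2 fold change of -1.90 ± 0.28 SE and an adjusted p of 0.0285 in edgeR. The 95% interval ran from -2.57 to -1.24. With 1 library left out the change stayed between -2.08 and -1.78, and the call was lost without DMSO 1 (adjusted p = 0.0696 in edgeR).

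CCNE1, which encodes the paralog cyclin E1 (chr19:29811898-29824308, plus strand), was at 18.3 and 20.9 CPM in DMSO and at 19.0 and 11.5 CPM in Rib_CA. Rib_CA 1 sat between the DMSO libraries and only Rib_CA 2 was low. Its log2 fold change was -0.36 ± 0.34 SE (95% interval -1.19 to 0.46, adjusted p = 0.532 in edgeR). The CCNE2 estimate lay outside this interval in the fit without GC correction. Within a library, the log2 ratio of CCNE2 to CCNE1 counts was 1.85 and 1.52 in DMSO and -0.05 and 0.42 in Rib_CA. This ratio does not depend on how libraries are scaled. Its group means differed by -1.50, with no overlap, which gave p = 0.333 in an exact two-sided permutation test, the smallest that 4 libraries allow.

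Transcript composition and overlap are given here beside the change of CCNE2, and their part in it was not tested. Its longest transcript has 36.9% GC, the lowest of the 10, against 52.9% for CCNE1, the highest. Among the 2176 tested genes under 40% GC, 14.6% were called lower and the median log2 fold change was -0.57. Among the 6253 genes of at least 50% GC, 0.128% were called lower and the median was 0.38. After each library was corrected for GC content and length, the value for CCNE2 was -1.32 on the log2 scale (adjusted p = 0.103 in edgeR, where no gene of the table passed, with 3399 genes at an unadjusted p under 0.05). The same correction took CCNE1 to -0.79 ± 0.30 SE (adjusted p = 0.175 in edgeR). It took the difference in the CCNE2 to CCNE1 ratio to -0.56. CCNE2 also shares 37.0% of its exonic bases with INTS8, an Integrator subunit gene on the opposite strand, and reads on those bases are separable only if counting used strand. INTS8 itself was at 69.8 and 42.5 CPM in DMSO and 15.4 and 35.7 CPM in Rib_CA (log2 fold change -1.14 ± 0.46 SE; adjusted p = 0.166 in edgeR).

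CDK2, the partner of cyclins E and A (chr12:55966769-55972784, plus strand), was at 81.3 and 58.2 CPM in DMSO and at 61.1 and 59.7 CPM in Rib_CA. Both Rib_CA libraries lay inside the DMSO range. Its log2 fold change of -0.21 ± 0.28 SE (95% interval -0.87 to 0.46) did not pass (adjusted p = 0.673 in edgeR) and turned to 0.049 without DMSO 1.

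CCNA2, which encodes cyclin A2 (chr4:121816444-121823933, minus strand), came second. It was at 175 and 149 CPM in DMSO 1 and 2 and at 58.6 and 80.9 CPM in Rib_CA 1 and 2, with no overlap. The group means were 162 ± 18.7 and 69.7 ± 15.8 CPM (SD, n = 2), a 2.33-fold lower level in Rib_CA. The log2 fold change of -1.22 ± 0.28 SE (95% interval -1.89 to -0.54) just missed the threshold with an adjusted p of 0.0519 in edgeR. In 16 alternatives the value was negative throughout, from -1.47 to -0.75, and it passed in 8, DESeq2 among them (adjusted p = 0.00229). DESeq2 called 991 genes higher and 1459 lower, against 275 and 699 in edgeR. The 8 also include the fits without Rib_CA 1 and without Rib_CA 2, and a crossed replicate block chosen after seeing the data. CCNA2 did not pass after the GC correction (-0.75, adjusted p = 0.0954 in edgeR) or the GC and length correction (-0.90, adjusted p = 0.0891). The log2 fold change was -1.04 without Rib_CA 1 and -1.47 without Rib_CA 2. It was -1.10 without DMSO 1 and -1.33 without DMSO 2, and did not pass in either. Each of these fits leaves 1 library in a group. Total-count scaling took CCNA2 further from the threshold (adjusted p = 0.103 in edgeR). The gene shares 9.08% of its exonic bases with EXOSC9 on the opposite strand. EXOSC9 itself was at 53.0 and 42.9 CPM in DMSO and 23.1 and 25.6 CPM in Rib_CA. Its log2 fold change was -0.98 ± 0.28 SE (adjusted p = 0.0796 in edgeR).

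**Figure D2:**
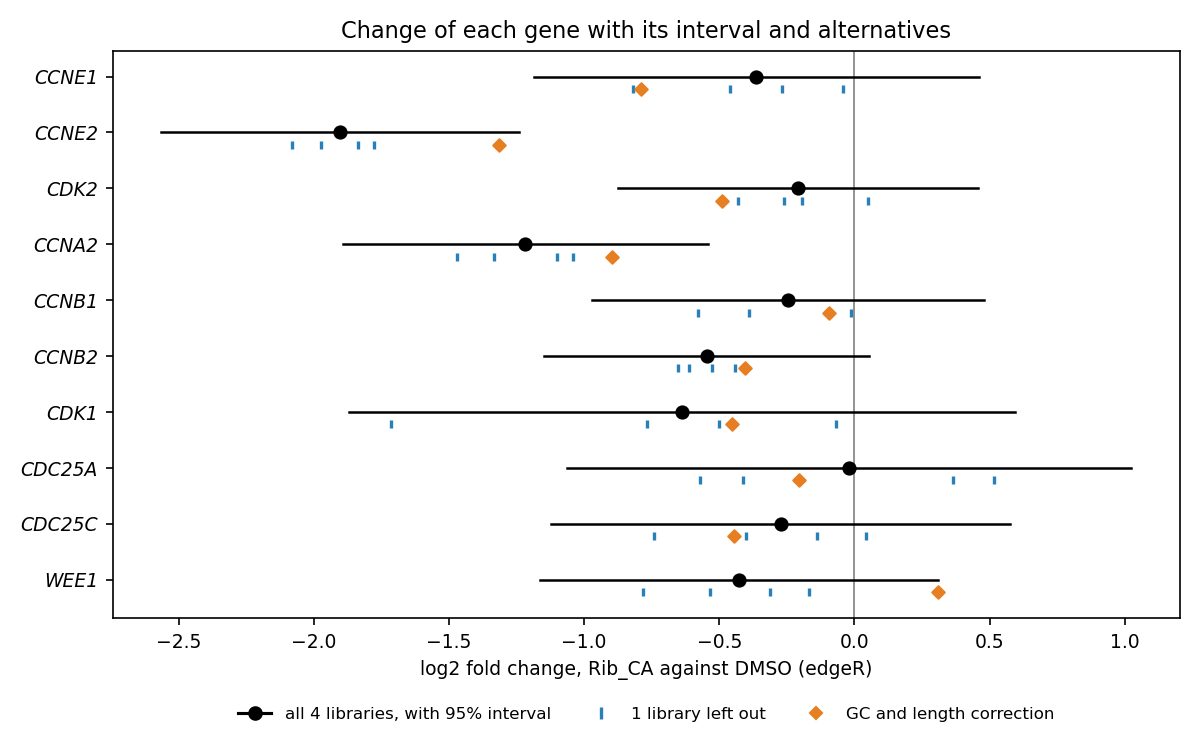
Log2 fold change of each gene, Rib_CA against DMSO (horizontal axis). Black points and lines are the edgeR estimate from 4 libraries with its 95% interval, blue ticks the values with 1 library left out, and orange diamonds those after GC and length correction. The intervals of CCNE2 and CCNA2 alone lie wholly below 0, and the blue ticks of CDK1 run from -1.71 to -0.07.

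The B cyclins and CDK1 form the kinase of mitosis, and none of these 3 genes passed. CCNB1, which encodes cyclin B1 (chr5:69167010-69178245, plus strand), was at 182 and 148 CPM in DMSO and at 111 and 168 CPM in Rib_CA. Rib_CA 1 was the lowest library and Rib_CA 2 lay within the DMSO range. The log2 fold change was -0.25 ± 0.30 SE (95% interval -0.97 to 0.48; adjusted p = 0.643 in edgeR). It was 0.143 after the GC correction and -0.096 after the GC and length correction.

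CCNB2, which encodes cyclin B2 (chr15:59105078-59125045, plus strand), was at 102.7 and 88.6 CPM in DMSO and at 62.7 and 68.2 CPM in Rib_CA. The groups did not overlap, and the means were 95.7 ± 10.00 and 65.5 ± 3.90 CPM (SD, n = 2). A log2 fold change of -0.55 ± 0.25 SE (95% interval -1.15 to 0.05) did not pass (adjusted p = 0.210 in edgeR). The value was negative in all 16 alternatives, which refit these same libraries.

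CDK1, the catalytic partner of the B cyclins (chr10:60778331-60794852, plus strand), was at 106.8 and 88.5 CPM in DMSO. In Rib_CA it was at 29.8 CPM in library 1 and 95.7 CPM in library 2, a gap of 3.21-fold, where the median gap between the Rib_CA libraries over all genes was 1.37-fold. Library 1 stood far below DMSO and library 2 within it. The log2 fold change of -0.64 ± 0.52 SE (95% interval -1.87 to 0.59; adjusted p = 0.457 in edgeR) therefore rested on Rib_CA 1. It was -1.71 without Rib_CA 2 and -0.07 without Rib_CA 1, each from a fit with 1 Rib_CA library and so no spread within Rib_CA. The longest CDK1 transcript has 37% GC. The value was -0.11 after the GC correction and -0.45 after the GC and length correction.

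CDC25 phosphatases release CDK1 and CDK2 from their inhibitory phosphate. CDC25A, which acts from the start of DNA synthesis (chr3:48157146-48188402, minus strand), was at 44.4 and 23.3 CPM in DMSO and at 43.6 and 23.2 CPM in Rib_CA. Replicates 1 of both groups were thus high and replicates 2 low, by 1.90-fold in DMSO and 1.88-fold in Rib_CA. Between groups the log2 fold change was -0.02 ± 0.44 SE (95% interval -1.06 to 1.02; adjusted p = 0.984 in edgeR), an interval that leaves room for a 2-fold change either way.

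CDC25C, the phosphatase of mitotic entry (chr5:138285265-138338355, minus strand), was at 27.1 and 22.5 CPM in DMSO and at 14.9 and 26.2 CPM in Rib_CA. As for CDK1 and CCNB1, Rib_CA 1 was the lowest of the 4 libraries and Rib_CA 2 lay within the DMSO range. The log2 fold change was -0.27 ± 0.36 SE (95% interval -1.12 to 0.58; adjusted p = 0.664 in edgeR), and 0.041 without Rib_CA 1. It shares 8.78% of its exonic bases with FAM53C on the opposite strand, a gene at 74.2 and 78.8 CPM in DMSO and 190 and 128 CPM in Rib_CA.

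WEE1, the kinase that opposes them (chr11:9573681-9593457, plus strand), was at 44.3 and 37.95 CPM in DMSO and at 36.7 and 24.6 CPM in Rib_CA. The groups did not overlap, but Rib_CA 1 missed DMSO 2 by little. On the log2 scale the fold change was -0.43 ± 0.31 SE (95% interval -1.16 to 0.31; adjusted p = 0.407 in edgeR). Its transcript is the longest of the 10, at 5187 bases with 37.9% GC, and after the GC and length correction the value was 0.308.

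The 2 Rib_CA libraries differed from each other in opposite directions for different members. Lower in Rib_CA 1 than in Rib_CA 2 were CDK1 by 1.68 on the log2 scale, CDC25C by 0.82, CCNB1 by 0.60, CCNA2 by 0.46 and CCNB2 by 0.12. Higher in Rib_CA 1 were CDC25A by 0.91, CCNE1 by 0.73, WEE1 by 0.58 and CCNE2 by 0.26, while CDK2 differed by 0.04. Over all genes tested the median size of this difference was 0.46, so CDK1, CDC25A, CDC25C, CCNE1, CCNB1 and WEE1 lay above it. Between the DMSO libraries the largest difference among the 10 was that of CDC25A, 0.93, where the median over all genes was 0.28. These are differences between single libraries and carry no test. Their relation to the mitochondrial share (5.78% in Rib_CA 1, 3.13% in Rib_CA 2) was not tested.

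Ratios of counts within a library were compared for 8 pairs, with p from an exact two-sided permutation test that cannot go below 0.333 and adjusted values of 1 for all 8 pairs. Besides CCNE2 to CCNE1, the groups lay apart only for CCNA2 to CCNE1, with log2 ratios of 3.26 and 2.83 in DMSO and 1.62 and 2.82 in Rib_CA (difference -0.83; p = 0.333 in the exact permutation test). Rib_CA 2 and DMSO 2 were almost equal there, and the difference was -0.23 without Rib_CA 1 and -0.08 after the GC and length correction. The balance of CDK2 to CDK1 was -0.39 and -0.61 in DMSO, and 1.04 in Rib_CA 1 against -0.68 in Rib_CA 2. Rib_CA 1 was thus the 1 library with more CDK2 than CDK1 counts. For CCNB2 to CCNB1 the values were -0.83 and -0.74 in DMSO and -0.82 and -1.30 in Rib_CA, the narrowest spread of the pairs. For the pairs with WEE1, CDC25A lay at 0.00 and -0.70 in DMSO and 0.25 and -0.08 in Rib_CA, and CDC25C at -0.71 and -0.75 in DMSO and -1.30 and 0.09 in Rib_CA, with overlap in both pairs. The groups also overlapped for CCNB1 to CCNE1 (3.31 and 2.82 in DMSO, 2.54 and 3.87 in Rib_CA) and for CDC25C to CDC25A (-0.71 and -0.05 in DMSO, -1.55 and 0.17 in Rib_CA).

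**Figure D3:**
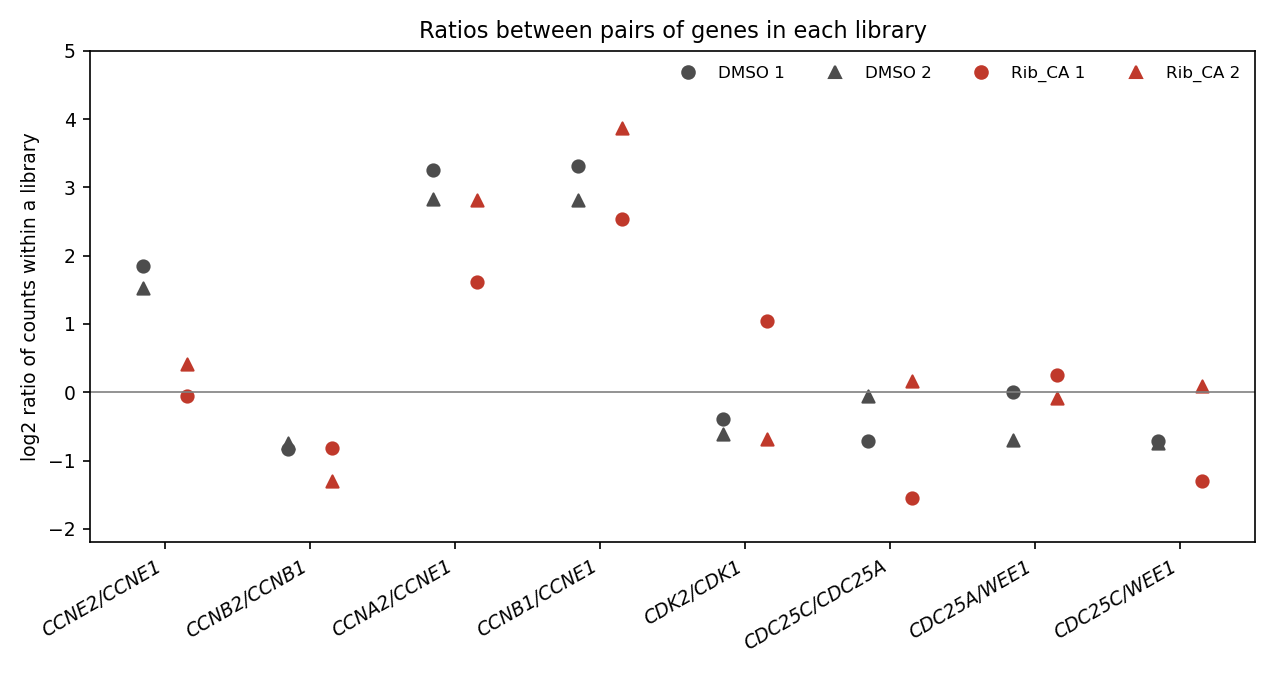
Log2 ratio of counts between 2 genes inside each library (vertical axis) for 8 pairs, DMSO in grey and Rib_CA in red, circles for replicate 1 and triangles for replicate 2. The CCNE2 to CCNE1 ratio is above 1.5 in both DMSO libraries and below 0.5 in both Rib_CA libraries, and the Rib_CA points of CDK2 to CDK1 lie 1.04 above and 0.68 below 0.

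The genes that regulate these kinases were taken from 4 lists with 70 genes in all, of which 2 rose and 7 fell in edgeR's test. This is 9 of 70, beside 7.13% of all genes, and the medians of the lists lay between -0.53 and -0.02. Without DMSO 1 the counts were 1 higher and 0 lower, and without DMSO 2 they were 0 and 2. Without Rib_CA 1 they were 4 and 15, without Rib_CA 2 they were 5 and 20, and with total-count scaling 2 and 1.

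Among 16 genes grouped here as positive regulators of these kinases, CCNF included, 1 fell and none rose (median -0.53). BORA, a cofactor by which Aurora A activates PLK1 ahead of mitosis, fell from 25.4 and 19.9 CPM to 7.40 and 7.99 CPM (log2 fold change -1.56 ± 0.31 SE; adjusted p = 0.0370 in edgeR). It shares 37.0% of its exonic bases with DIS3 on the opposite strand. AURKA, which encodes Aurora A, was at 237 and 235 CPM in DMSO and 118 and 128 CPM in Rib_CA (adjusted p = 0.0695). MASTL, the Greatwall kinase that shields CDK1 substrates from a phosphatase, was at 102 and 86.8 CPM in DMSO and 44.2 and 52.4 CPM in Rib_CA (adjusted p = 0.0742). Both lay apart from DMSO without passing. MASTL shares 12.2% of its exonic bases with YME1L1 on the opposite strand.

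Among 12 genes that restrain the kinases, 1 rose and 2 fell (median -0.02). CDKN1A, which encodes the inhibitor p21, rose from 36.5 and 19.0 CPM to 108.4 and 81.8 CPM (adjusted p = 0.0443 in edgeR). ATR, a checkpoint kinase that leads to CDC25 inhibition, fell from 62.2 and 37.7 CPM to 13.98 and 10.2 CPM (log2 fold change -2.04 ± 0.36 SE; adjusted p = 0.0301). ATM, the related kinase of the response to broken DNA, fell from 124.8 and 73.4 CPM to 29.1 and 35.0 CPM (adjusted p = 0.0417). After the GC and length correction the values of ATR and ATM were -1.16 and -0.50, and that of CDKN1A was 1.26. CDKN1A lost its call without DMSO 2, and ATR and ATM lost theirs without DMSO 1.

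Among 20 genes grouped here under the destruction of cyclins and CDC25 proteins, an inhibitor included, 1 rose and 1 fell (median -0.29). ANAPC11, the catalytic RING subunit of the anaphase-promoting complex, rose from 19.6 and 15.4 CPM to 52.8 and 46.6 CPM (log2 fold change 1.504 ± 0.286 SE; adjusted p = 0.0344 in edgeR). ANAPC1, its large scaffold subunit, fell from 136.4 and 114.1 CPM to 46.5 and 56.0 CPM (adjusted p = 0.0405). FBXO5, which encodes an inhibitor of that complex, was at 59.8 and 58.3 CPM in DMSO and 25.9 and 35.2 CPM in Rib_CA (adjusted p = 0.0898). Both calls were lost on leaving out either DMSO library, and ANAPC11 shares 6.13% of its exonic bases with NPB on the same strand.

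Among 22 genes of the cyclin D step and the E2F and MuvB complexes, 3 fell and none rose (median -0.18). RBL1, an RB relative, fell from 101.5 and 98.1 CPM to 41.8 and 32.6 CPM (adjusted p = 0.0338 in edgeR). E2F8, a repressing E2F, fell from 43.5 and 47.5 CPM to 18.4 and 14.5 CPM (adjusted p = 0.0358). LIN54, the MuvB subunit that binds the CHR, fell from 57.8 and 83.9 CPM to 26.7 and 28.3 CPM (adjusted p = 0.0451). These calls, like that of BORA, were lost on leaving out either DMSO library. After the GC and length correction the log2 fold changes were -0.74 for RBL1, -1.32 for E2F8, -0.69 for LIN54, -1.13 for BORA, -0.78 for ANAPC1 and 0.99 for ANAPC11.

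**Figure D4:**
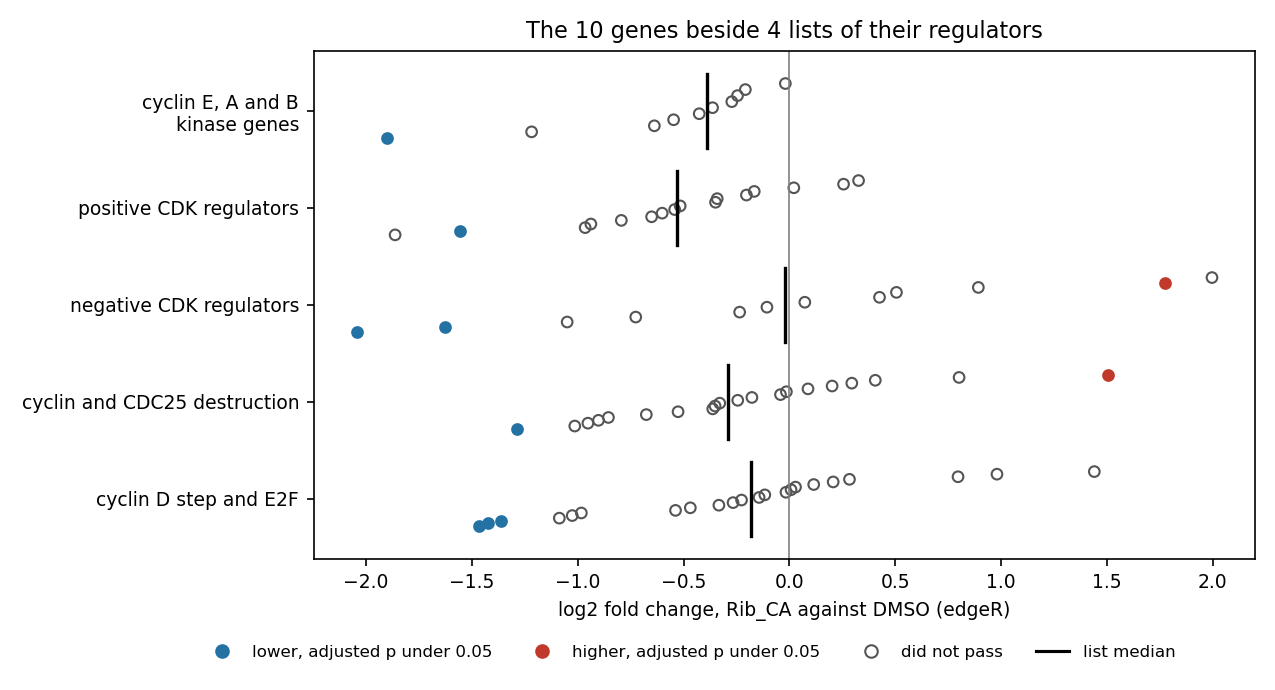
Log2 fold change of each gene, Rib_CA against DMSO in edgeR (horizontal axis), for the 10 genes and the 4 lists of their regulators, 1 row each, with points sorted and spread vertically for legibility. Filled points passed an adjusted p under 0.05, blue lower and red higher, and black bars mark the list medians, which run from -0.53 to -0.02.

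Promoter letters and calls were also set side by side over all genes. Of the 252 tested genes with both a CCAAT box and a CHR form in the window, 35 were called lower and 3 higher, with a median of -0.34. For all 10903 tested genes with a window, 5.41% were called lower and the median was 0.03, against 13.9% of the 252. The share called lower was 6.69% among all genes with a CCAAT box and 8.35% among all with a CHR form. Of 211 genes with an E2F form, 27 (12.8%) were called lower, and CDC25A, at -0.02, was not among them. These counts describe the letters and the calls side by side and no test was run on them. The calls are those of the fit without GC correction, and no gene passed after that correction.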

How the data were processed

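Gene counts of 4 mRNA libraries were analysed, 2 from DMSO and 2 from Rib_CA cells. The authors deposited raw counts, whole numbers without normalisation, for 20263 human Ensembl genes. The submitters' processing notes name GRCm38 and mm10, mouse builds that the human IDs go against. For the aligner, the counter and use of strand, the sources used here name nothing. Symbols were found for 20148 IDs, and places, lengths, GC content and overlaps came from GENCODE 29 (GRCh38). The libraries of a group differed by far more than counting noise (chi-square 256.6 and 265.3 per degree of freedom).

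Genes kept by filterByExpr (minimum count 10, total 15) were scaled by TMM (factors 0.872 to 1.14) and tested in edgeR 4.0.16 (R 4.3.3) by glmQLFit (robust) and glmQLFTest, with Benjamini-Hochberg adjustment over all genes. All 10 members passed the filter. SE is the absolute log2 fold change over the root of F. Ratios used counts plus 0.5.

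The members and lists were chosen with earlier results of these data known. Named were all 10 members and, from each of 4 lists of regulators, those that passed, or up to 3 with the smallest p. Alternatives were DESeq2 1.42.0 and its size factors, limma-voom (limma 3.58.1), total counts, 2 filters, replicate blocks, each library left out, no mitochondrial genes, and smooths over GC or GC and length (mgcv 1.9.3, 6 basis functions), which also remove a real change that runs along GC or length. The fit was tested on simulated data. Figures used matplotlib 3.10.9. The promoter site of 1 member and 1 marker gene are not reported here.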

Additional observations from a re-analysis of the deposited data

How the results depend on the processing

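Over all genes, 275 were called higher and 699 lower. With 1 library left out the counts ran from 36 to 1234 higher and from 137 to 1634 lower, lowest without DMSO 1 and highest without Rib_CA 1. They were 448 and 876 without a filter, 418 and 808 with at least 5 CPM in 2 libraries, 260 and 328 with total counts alone, 991 and 1459 in DESeq2, and 0 and 0 after each of the GC corrections, including that with the replicate block. Of the 10 members 1 was lower, and with 1 library left out 0 to 3 were. It was 2 with DESeq2, with DESeq2 size factors, with either other filter and without mitochondrial genes, where CCNA2 joined CCNE2, and 0 after each GC correction. CCNE2 had an adjusted p of 0.0285 in edgeR and 4.06e-07 to 0.127 over its 16 alternatives. Of the 70 regulators 2 were higher and 7 lower, and 0 to 5 and 0 to 20 with 1 library left out. They were 4 and 7 with at least 5 CPM in 2 libraries, 5 and 16 in DESeq2, 2 and 1 with total counts, and 0 and 0 after each GC correction.

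Directions turned for members that were not called. With 1 library left out, log2 fold changes ran from -0.432 to 0.049 for CDK2, from -0.573 to 0.515 for CDC25A and from -0.741 to 0.041 for CDC25C. CDC25A was at 0.125 with total counts and 0.022 without mitochondrial genes, and CCNB1 at 0.143 after the GC correction. WEE1 was at 0.292 after the GC correction, at 0.308 after the GC and length correction, and at 0.204 with the replicate block added. Differences in log2 ratio ran with 1 library left out from -0.53 to 0.804 for CCNB1 to CCNE1, from -0.182 to 1.535 for CDK2 to CDK1, from -1.172 to 0.556 for CDC25C to CDC25A and from -0.571 to 0.825 for CDC25C to WEE1. After the GC and length correction CDC25A to WEE1 was at -0.374 and CDC25C to WEE1 at -0.691. The causes were not tested.

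The replicate numbers occur in both groups, but same-numbered libraries did not deviate together (r = -0.19 over 13667 genes), so they are not taken as pairs. The replicate block gave 260 genes higher and 687 lower, 1 member lower (CCNE2, -1.907, adjusted p = 0.00763 in edgeR), and 3 regulators higher and 7 lower. A crossed replicate block, chosen after seeing the data, gave 724 and 1267 genes, 2 members lower, and 4 and 15 regulators. With 2 libraries a group, the 95% intervals of 8 of the 10 members included 0.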
